A study of Mus musculus with 4 samples.

Results

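The genes described here make up the core of JAK-STAT5 signalling and its feedback in sorted haematopoietic stem cells (HSCs). They are the kinase genes *Jak1* and *Jak2*, the transcription factor genes *Stat3*, *Stat5a* and *Stat5b*, the feedback inhibitor genes *Socs1*, *Socs2*, *Socs3* and *Cish*, and the survival kinase gene *Pim1*. These 10 genes were taken by name from the 23906 gene symbols of the deposited tables. The rule uses no measured value, but the genes were chosen with earlier results of these data known. All 10 were found, and none shared its 4 values with another symbol. RNA was sequenced from LSK-SLAM cells, which are lineage-negative, carry Sca1, cKit and CD150 and lack CD48, sorted from *BRE-GFP* transgenic mice on a C57BL/6 background. The transgene places GFP under a BMP responsive element, so GFP+ cells are those with active BMP signalling at sorting and GFP- cells those without it, whatever their history. There were 4 libraries, 1 each of FL GFP+ and FL GFP- cells from fetal liver (FL) at embryonic day 14 and of BM GFP+ and BM GFP- cells from adult bone marrow (BM). All 4 carry the same transgene and had no treatment, and per the study's methods the data shown come from 1 transgenic line, bred from heterozygous fathers. The adult age and the number of animals behind each library are not given in the labels, and no group has a replicate.

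Cytokine receptors such as those for erythropoietin and interleukin-3 have no kinase of their own and signal through Janus kinases (JAKs) bound to their tails. An activated JAK phosphorylates STAT proteins, which pair, enter the nucleus and bind DNA. STAT5 then switches on *Cish* and *Socs* genes, whose proteins bind receptors or JAKs and turn the signal down, and *Pim1*, which favours survival. In HSCs, cytokine signals through JAK2 and STAT5 are known for their part in stem cell maintenance. The data are mRNA levels, and no phosphorylated protein was measured.

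STAT dimers recognise a palindrome, TTCNNNGAA, which reads the same on both strands. It was searched in promoter windows of 300 bases, from 250 bases before to 50 after each RefSeq gene start on GRCm38.p6. Windows were given for 9 of the 10 genes (12 windows), and 2 genes, *Cish* and *Socs3*, held the palindrome. Of all 32851 windows, 8.3% held it and 0.457% held it more than once, as *Cish* did. A stretch of each of these 2 windows is shown because it holds the palindrome, with the palindromes in capitals. The *Cish* stretch (chr9:107296559-107296688, plus strand) runs from 100 bases before the start to 30 after it, and its palindromes begin at bases 1 and 12 of the transcript. The *Socs3* stretch (chr11:117969467-117969596, minus strand) begins 230 bases before the RefSeq start, and its palindrome begins at position -154 relative to it. The end of the *Cish* window was found in an annotated *Cish* transcript, and that of the *Socs3* window in no annotated *Socs3* transcript. Whether the *Socs3* stretch lies before the transcript or inside it is thus not settled.
Cish: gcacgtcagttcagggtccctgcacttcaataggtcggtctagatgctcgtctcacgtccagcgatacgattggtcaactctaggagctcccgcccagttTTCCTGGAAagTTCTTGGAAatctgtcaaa
Socs3: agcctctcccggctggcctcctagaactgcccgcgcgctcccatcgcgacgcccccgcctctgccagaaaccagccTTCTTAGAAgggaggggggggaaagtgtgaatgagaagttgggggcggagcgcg
A match is a run of letters and not a bound site, and STAT binding was not measured.

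Levels are FPKM, which are fragments scaled to the length of the transcript and to the depth of the library, so that genes can be compared with each other. Sets of 4 values below follow the order FL GFP+, FL GFP-, BM GFP+, BM GFP-. FPKM summed to between 541453 and 1000848 per library, the highest in BM GFP+ cells, and read counts behind a value are unknown. The 4 fetal genes *Lin28b*, *Hmga2*, *Igf2bp1* and *Igf2bp3* were each higher in both FL libraries than in both BM libraries, as the tissue labels say. Of the BMP target genes *Id1*, *Id2*, *Id3*, *Smad6* and *Smad7*, all 5 were higher in BM GFP+ than in BM GFP- cells. Past 2-fold were 4 of them, against 21.1% of 12385 genes. In the FL *Id1*, *Id2* and *Smad6* were the higher in GFP+ cells and 0 passed 2-fold, against 17.9% of 12134 genes. *Cd48*, which the sort selects against, had an FPKM of 17.4 to 267 and was above *Slamf1* (CD150, 4.74 to 12.6) in every library. Genes of mature cells were also present, most of all in BM GFP+ cells, which stand apart from the other libraries. The FPKM of 9 granulocyte genes summed to 576, 283, 62294 and 15918, and that of 7 B cell genes to 96.3, 41.9, 3462 and 933. Erythroid genes (6) summed to 942, 888, 20389 and 2820, macrophage genes (7 of 8 listed) to 79.5, 39.4, 308 and 99.6, and T cell genes (6) to 12.9, 15.7, 165 and 52.8. Hepatocyte genes (5) were highest in FL GFP+ cells, at 327 against 23.7 in FL GFP- cells. In such bulk samples, fewer cells of a type and less RNA per cell cannot be told apart.

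**Figure D1:**
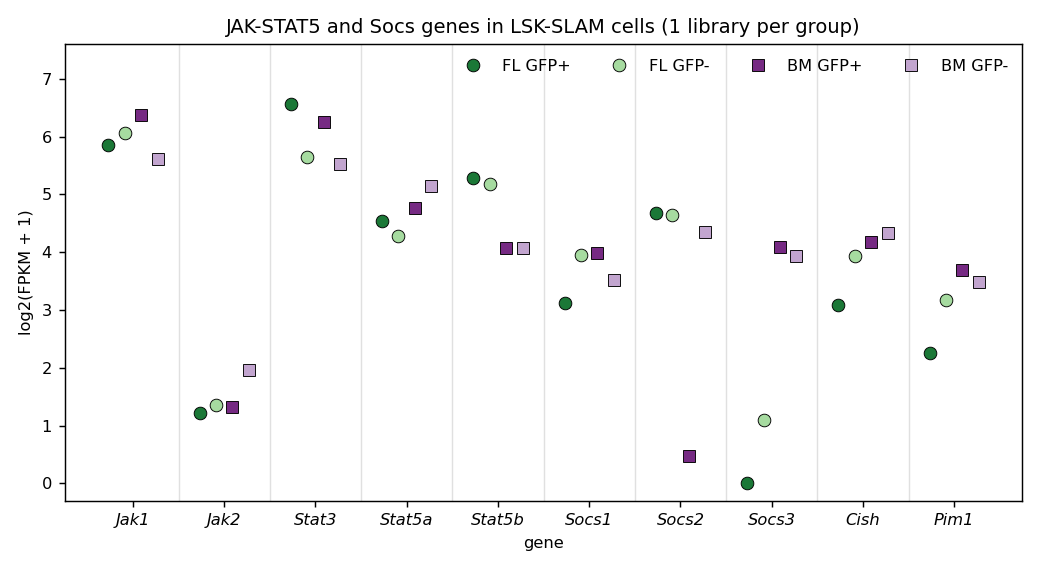
FPKM of the 10 genes in the 4 libraries, on a log2(FPKM + 1) axis, with circles for FL and squares for BM, and dark symbols for GFP+ and light ones for GFP- cells. Each symbol is 1 library, and the symbols far from the rest of their gene are *Socs2* in BM GFP+ cells (FPKM of 0.382) and *Socs3* in both FL libraries (0 and 1.13).

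*Jak1*, the JAK that pairs with most cytokine receptors, was far more abundant than *Jak2*, the JAK of the erythropoietin receptor. *Jak1* (chromosome 4 of NCBIM37, 100824972 to 100937887) had FPKM values of 56.5, 65.4, 82.2 and 47.9. *Jak2* (chromosome 19, 29326318 to 29387570) had values of 1.34, 1.56, 1.49 and 2.91. The level of *Jak1* was thus 42.3, 42.0, 55.1 and 16.5 times that of *Jak2* within each library. *Jak1* stood at the 81.1 to 88.3 percentile of the 13609 genes that reached an FPKM of 1 in at least 1 library, and *Jak2* at the 20.7 to 30.3 percentile. *Jak1* varied least of the 10 genes, with 1.72 times between its highest and lowest library. Its highest and lowest libraries were both from the BM, GFP+ and GFP- respectively. *Jak2* was highest in BM GFP- cells, and its other libraries lay between 1.34 and 1.56.

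The 3 STAT genes lie side by side on chromosome 11 of NCBIM37, with *Stat5b* at 100642045 to 100712038, *Stat5a* at 100720665 to 100746483 and *Stat3* at 100746412 to 100800854. *Stat3*, which mediates interleukin-6 and other gp130 signals, had the highest mean level of the 10 genes. Its FPKM values were 93.4, 49.2, 75.1 and 45.2. GFP+ cells were above GFP- cells by 1.90-fold in the FL and 1.66-fold in the BM. Among the 10 genes *Stat3* had the largest fold of GFP+ over GFP- cells in the FL, and it stayed below 2-fold in both tissues. The annotated ends of *Stat3* and *Stat5a*, which point at each other, overlap by 72 bases, and whether reads were counted by strand is not stated.

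*Stat5a* and *Stat5b* encode the closely related STAT5 proteins, and the order of their levels was not the same in the 2 tissues. *Stat5a* had FPKM values of 22.3, 18.4, 26.1 and 34.4. *Stat5b* had values of 37.7, 35.3, 15.9 and 15.8. *Stat5b* was the higher of the pair in both FL libraries, by 1.69-fold in GFP+ and 1.92-fold in GFP- cells, and *Stat5a* the higher in both BM libraries, by 1.65-fold and 2.18-fold. *Stat5a* thus made up 37.2% (GFP+) and 34.2% (GFP-) of their summed FPKM in fetal cells, against 62.2% and 68.5% in adult cells. The sum itself ranged only from 42.0 to 60.0. This ratio was chosen after its values had been seen, and it is taken within a library, so that no scaling of whole libraries moves it. On the log2 scale it differed between BM and FL by 1.48 in the GFP+ and by 2.07 in the GFP- fraction. Averaged over fractions the difference was 1.77, and without the BM GFP+ library it was 1.97. Between the fractions of one tissue, *Stat5b* hardly differed, with log2(FPKM + 1) ratios of 0.09 in the FL and 0.01 in the BM. Of the 50-base windows of *Stat5a* transcripts, 14.7% also occur in *Stat5b* transcripts, and 11.1% the other way round. Reads from such windows cannot be assigned to either gene by sequence, and how the authors' correction for reads that map to several places divided them was not tested.

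**Figure D2:**
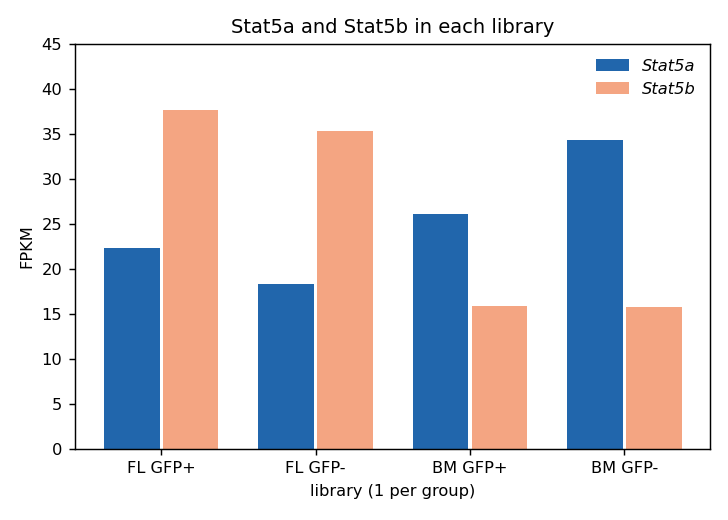
FPKM of *Stat5a* (blue) and *Stat5b* (orange) in each library, with 1 library per group and no error bars. *Stat5b* is the taller bar in FL GFP+ and FL GFP- cells (37.7 and 35.3), and *Stat5a* in BM GFP+ and BM GFP- cells (26.1 and 34.4).

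*Socs2*, a STAT5-induced inhibitor known for restraining growth hormone signalling, was nearly missing from 1 library. Its FPKM values were 24.6, 23.9, 0.382 and 19.3. The BM GFP+ library lies far below the other 3, which are close to each other. Fewer genes had an FPKM above 0 in GFP+ than in GFP- libraries, 12372 against 15556 in the FL and 13489 against 17345 in the BM, and the part of this in values near 0 was not tested. BM GFP- cells were 50.7-fold and FL GFP+ cells 64.5-fold above BM GFP+ cells, although a ratio to so low an FPKM has an unknown error. *Socs2* lies on chromosome 10 of NCBIM37 at 94847996 to 94879814. In the same BM GFP+ library *Kit* had an FPKM of 22.2, against 76.6 in BM GFP- cells. Of the lists of mature cell genes, 6 of 9 granulocyte, 6 of 7 B cell, 5 of 6 T cell, 5 of 6 erythroid and 6 of 7 macrophage genes were past 2-fold higher in BM GFP+ than in BM GFP- cells, and none was at 0 in BM GFP+ cells. Of all 12385 genes compared, 21.1% were past 2-fold higher in BM GFP+ cells and 19.6% lower. Megakaryocyte and endothelial genes were split. Of 5 megakaryocyte genes 1 was past 2-fold higher and 1 lower in BM GFP+ cells, with sums of 344 against 437. Of 4 endothelial genes 2 were higher (*Cdh5* and *Kdr*) and 2 lower (*Tie1* and *Emcn*), with sums of 4.72 against 46.2. The comparison needs an FPKM of 1 in either library. *Cdh5* and *Kdr* entered it through BM GFP+ cells alone, and *Tie1* and *Emcn* through BM GFP- cells alone. The direction of these 4 calls was thus set. The same holds for *Fcna* among the macrophage genes and *Vwf* among the megakaryocyte genes. The part of the cells of all these lists in the level of *Socs2* was not tested.

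*Socs3*, the inhibitor induced by STAT3 that acts on gp130 receptors, was a BM transcript in these libraries. Its FPKM values were 0, 1.13, 16.1 and 14.3. BM GFP- cells were 12.7-fold above FL GFP- cells. No fold is given for the GFP+ fraction, where the FL value is 0. *Socs3* lies on chromosome 11 at 117827393 to 117831361. The 8 immediate early genes listed (*Fos*, *Fosb*, *Jun*, *Junb*, *Egr1*, *Ier2*, *Dusp1* and *Atf3*) went the same way, with summed FPKM of 134, 152, 2940 and 2575. All 8 were past 2-fold higher in the BM in both fractions, as were all 9 granulocyte and all 7 B cell genes. Of all 11214 genes compared, 11.9% were. Below an FPKM of 1 in FL GFP+ and FL GFP- cells were 3 and 2 immediate early genes. For granulocyte genes it was 4 and 4, and for B cell genes 4 and 6. These entered the comparison, which needs an FPKM of 1 in either library, through the BM alone, so its direction was set. In the FL libraries *Atf3*, *Ebf1*, *Pax5*, *Igll1*, *Cd3e* and *Cd3g* were listed at 0. The part in the level of *Socs3* of what moved these genes was not tested.

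*Cish*, the classical STAT5 target that blocks STAT5 docking on receptors, and *Socs1*, which blocks the JAK catalytic domain, had moderate levels throughout. *Cish* (chromosome 9, 107198357 to 107205115) had FPKM values of 7.51, 14.3, 17.0 and 19.0. *Socs1* (chromosome 16, 10783901 to 10785629) had values of 7.73, 14.5, 14.9 and 10.5. FL GFP+ cells had the lowest level of both, 1.90-fold below FL GFP- cells for *Cish* and 1.87-fold below for *Socs1*. In the BM the fractions differed by 1.12-fold for *Cish* and 1.41-fold for *Socs1*, the GFP+ library being the lower for *Cish* and the higher for *Socs1*.

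*Pim1*, which encodes a serine/threonine kinase without need of activation and is induced by STAT3 and STAT5, had the order of *Socs3*. Its FPKM values were 3.75, 7.99, 11.95 and 10.2 (chromosome 17, 29627757 to 29632390). The FL GFP+ library was lowest for *Pim1*, *Socs3*, *Cish* and *Socs1*, and for *Jak2* as well. It was also the library with the fewest genes above 0 (12372). The share of all genes that were lowest there was not computed. Profiles over the 4 libraries were compared as the root mean square distance of log2(FPKM + 1) values, each gene centred on its own mean. The closest pair among the 10 was *Cish* and *Pim1*, at a distance of 0.15, and 93 other genes of 13608 were nearer to *Cish* than *Pim1* was. *Jak2* and *Stat5a* came next at 0.20, with 293 other genes nearer to *Jak2*. Over 4 libraries such likeness is a description only.

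The 4 feedback genes summed to FPKM values of 39.9, 53.8, 48.4 and 63.2, and their make-up varied more than their sum. *Socs2* took the largest share in FL GFP+ (61.8%), FL GFP- (44.5%) and BM GFP- cells (30.6%) and 0.789% in BM GFP+ cells. In BM GFP+ cells the shares of *Socs1*, *Socs3* and *Cish* were 30.7%, 33.3% and 35.2%. *Socs3* took 0% and 2.10% in the FL libraries and 22.7% in BM GFP- cells.

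**Figure D3:**
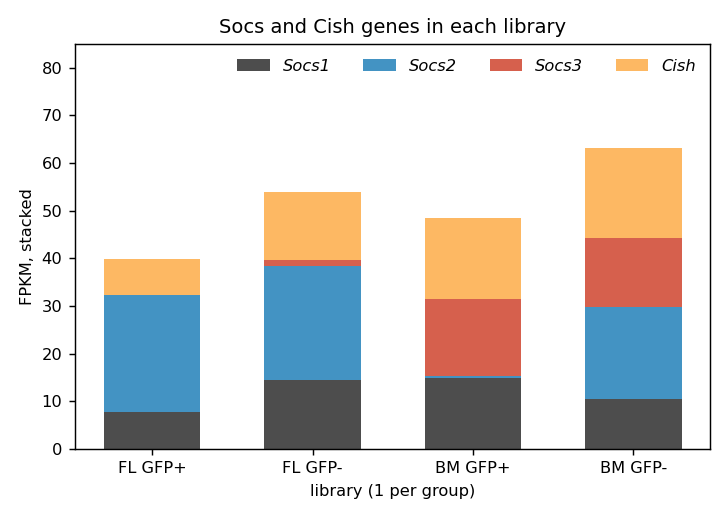
FPKM of *Socs1*, *Socs2*, *Socs3* and *Cish* stacked for each library (1 per group). *Socs2* (blue) is visible in every bar but that of BM GFP+ cells (0.382), and *Socs3* (red) is seen mainly in the BM bars (16.1 and 14.3).

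To ask which of the 10 genes followed BMP activation, GFP+ were compared with GFP- cells in each tissue by the threshold of the study's methods, an FPKM more than 2 times the other, over genes that reached an FPKM of 1 in either library. All 10 genes passed this filter in each pair. In the FL, 2 of the 10 were past 2-fold lower in GFP+ cells, *Pim1* by 2.13-fold and *Socs3* (0 against 1.13, where FL GFP- cells alone carried it past the filter), and 0 were higher. Of all 12134 genes compared there, 26.8% were lower and 17.9% higher, so that the 10 genes passed no more often than genes in general. With all libraries brought to equal FPKM totals, *Socs1* and *Cish* also passed, making 4 lower, against 31.5% of all genes lower and 13.0% higher. Hepatocyte genes moved with the FL fractions, 4 of 5 being past 2-fold higher in FL GFP+ cells. Among them *Serpina1a* passed the filter through FL GFP+ cells alone. The part of the hepatocyte genes' cells in these values was not tested. In the BM, *Socs2* was lower in GFP+ cells, where BM GFP- cells alone carried it past the filter. Of the 10 genes 0 were higher, against 19.6% lower and 21.1% higher among 12385 genes (27.7% and 13.1% with equal totals). *Jak2*, 1.95-fold lower, passed as well with equal totals. No gene of the 10 was past 2-fold in the same direction in both tissues, where 3.45% of 10910 genes were higher and 6.48% lower. The signs of the ratios were opposite in FL and BM for 6 of the 10 genes and for 45.6% of the 13609 genes.

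**Figure D4:**
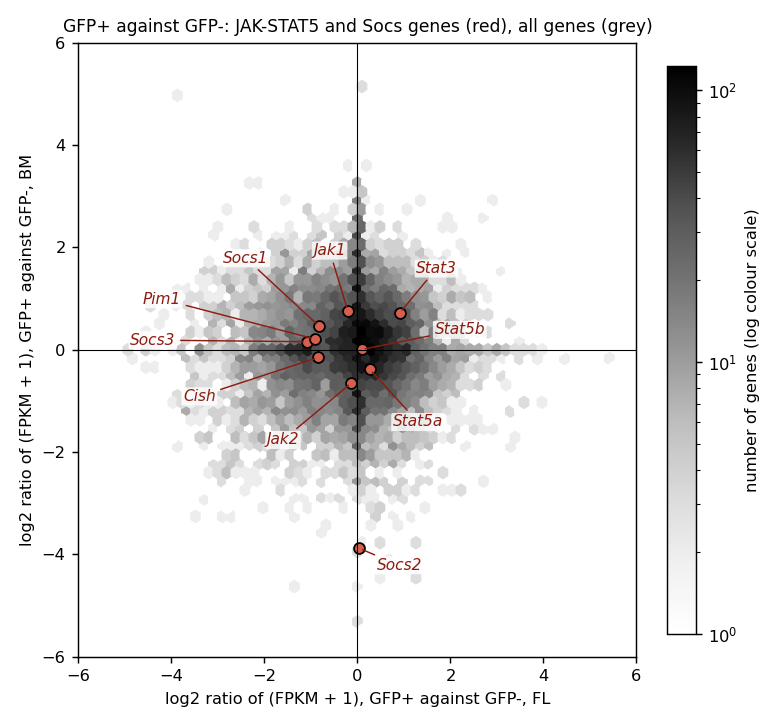
Log2 ratio of (FPKM + 1) in GFP+ over GFP- cells in the FL (x axis) and in the BM (y axis), for the 10 genes (red points) and for 13609 genes that reached an FPKM of 1 in any library (grey bins, log colour scale, 168 genes outside the axes). *Stat3* is up and to the right (0.91 and 0.72), *Socs2* is at the bottom (0.04 and -3.88), and *Socs1*, *Socs3*, *Cish* and *Pim1* lie to the left of 0.

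To ask which genes differed between the tissues, BM was compared with FL within each fraction. Among GFP- cells, which do not include the BM GFP+ library, *Socs3* was past 2-fold higher and *Stat5b* 2.24-fold lower in the BM, against 18.6% higher and 19.3% lower of 12703 genes (13.1% and 29.9% with equal totals). Among GFP+ cells, 3 of the 10 were higher in the BM, *Socs3* (past the filter through the BM alone), *Pim1* (3.18-fold) and *Cish* (2.27-fold). Lower there were 2, *Stat5b* (2.38-fold) and *Socs2* (past the filter through the FL alone). Of 12120 genes 33.6% were higher and 25.1% lower (25.1% and 38.1% with equal totals, where *Cish* no longer passed). *Socs3* and *Stat5b* were thus the genes past 2-fold in both fractions, 1 in each direction, against 11.9% of 11214 genes higher and 7.7% lower. In GFP- cells *Pim1* and *Cish* were 1.28-fold and 1.33-fold higher in the BM, and equal totals turned both to slightly lower values (log2 ratios of -0.07 and -0.02).

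**Figure D5:**
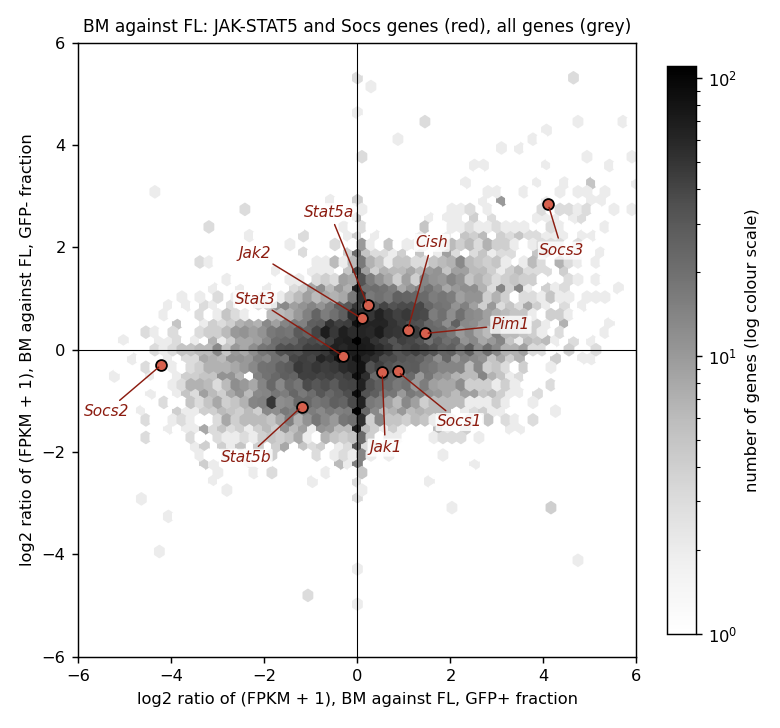
Log2 ratio of (FPKM + 1) in BM over FL cells in the GFP+ fraction (x axis) and in the GFP- fraction (y axis), for the 10 genes (red points) and for 13609 genes (grey bins, log colour scale, 290 genes outside the axes). *Socs3* is at the upper right (4.10 and 2.85), *Stat5b* at the lower left (-1.20 and -1.11), and *Socs2* is at the far left, near 0 on the y axis (-4.21 and -0.29).

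A test was possible only across tissues or across fractions, with 1 residual degree of freedom per gene. A linear model of log2(FPKM + 1) with both GFP and tissue was fitted with limma to the 11707 genes that reached an FPKM of 1 in 2 or more libraries, and all 10 genes entered it. For GFP, 0 of the 10 genes passed a Benjamini-Hochberg adjusted p of 0.05, against 0.111% of all genes, and 0 had an unadjusted p under 0.05. The smallest adjusted p was 0.83, for *Stat3*, whose GFP+ minus GFP- difference was 0.81 on the log2 scale (SE 0.38, 95% interval -0.05 to 1.68, higher in 2 of 2 tissues). For *Socs2* the difference was -1.92 (SE 1.02, limma adjusted p = 0.89). For tissue, 0 of the 10 genes passed, against 2.46% of all genes, and 1, *Socs3*, had an unadjusted p under 0.05. Its BM minus FL difference was 3.47 (SE 0.92, 95% interval 1.38 to 5.56, limma adjusted p = 0.09998, higher in 2 of 2 fractions), and without the BM GFP+ library it was 3.40. *Stat5b* differed by -1.16 (SE 0.54, limma adjusted p = 0.32), and by the same amount without the BM GFP+ library. *Socs2* differed by -2.25 (SE 1.02, limma adjusted p = 0.31), and by -0.31 without that library. For the remaining 7 genes the tissue difference was between -0.21 and 0.88, with adjusted p of 0.66 to 0.97. The intervals are wide, so differences of 2-fold were not detectable for most of these genes.

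Upstream of the kinases, 14 receptor genes of the STAT5 route were listed. Past 2-fold lower in GFP+ cells of both tissues was 1 of the 10 receptor genes that passed the filter in both, against 6.48% of all genes. This was *Ghr*, the growth hormone receptor gene, with values of 0, 6.88, 0 and 1.54, and its zeros are in the GFP+ libraries, where fewer genes were detected. Past 2-fold higher in the BM in both fractions were 3 of 11, and 0 were lower, against 11.9% and 7.7% of all genes. These were *Il2rb*, *Il7r* and *Il5ra*, receptor genes of lymphocytes and eosinophils. *Il2rb* had 0, 0.471, 61.8 and 9.81, and *Il7r* 0, 0.0996, 20.6 and 4.64. Both passed the filter through their BM values alone, as *Ghr* did through its GFP- values, so the direction of these calls was set by the filter. The B and T cell genes were highest in the same BM GFP+ library, and their part was not tested.

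Of 13 receptor genes of the STAT3 and interferon routes, 4 of 12 that passed the filter were higher in the BM in both fractions, and 0 were lower, beside the same 11.9% and 7.7% of all genes. They were *Il10rb*, *Il6ra*, *Il10ra* and *Lepr*, the last named after its values were seen (0.455, 0.221, 2.24 and 1.16). *Il6ra*, the interleukin-6 receptor gene, had 6.34, 4.70, 27.2 and 11.6, and *Il10ra* had 8.52, 0.0179, 27.3 and 8.92. With GFP, *Il10ra* was the only 1 of 11 past 2-fold in both tissues, against 3.45% of all genes higher and 6.48% lower. *Lepr* passed the filter through its BM values alone. *Il10ra* did so through BM GFP- cells in the GFP- fraction and through FL GFP+ cells in the FL. The direction of these calls was set by the filter. *Il6st*, the gp130 gene through which SOCS3 acts, is named after its values were seen. It had 5.86, 8.41, 0.214 and 5.57 and so was low in the same library as *Socs2*. The gene of this list with the highest mean level was *Ifngr1*, at 69.9, 99.7, 210.1 and 186.

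Of the 6 other JAK and STAT genes, all passed the filter. With GFP, 0 were past 2-fold in the same direction in both tissues, against 3.45% of all genes higher and 6.48% lower. By tissue, 1 was past 2-fold higher and 1 lower in the BM in both fractions, against 11.9% and 7.7% of all genes. The lower gene was *Jak3*, the kinase of the common gamma chain, with values of 139.8, 108, 19.1 and 43.8. *Jak3* was thus above *Jak1* in both FL libraries and below it in both BM libraries. Of 14 other inhibitor genes, 13 passed the filter, and 0 were past 2-fold by tissue in both fractions. Past 2-fold higher in GFP+ cells of both tissues was 1, *Pias4*, and 0 were lower, beside the same 3.45% and 6.48% of all genes. *Pias4*, which encodes a SUMO ligase that restrains STATs, had values of 77.8, 20.8, 50.6 and 22.9. *Ptpn6*, the SHP-1 phosphatase gene, had the highest mean level, with values from 239.6 to 383.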

How the data were processed

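The authors prepared SMARTer libraries for the HiSeq2000 and computed FPKM with Bowtie, TopHat and Cufflinks 2.2.1, corrected them with Cuffquant for fragment bias and reads mapping to several places, and normalized them over all samples with Cuffnorm (geometric method). The study's methods name the NCBI37/mm9 genome and the submitters' processing notes mm10, and the files hold no coordinates. The deposited FPKM were used unchanged. They are not counts, so the reads behind a value are unknown and neither intervals from counts nor count models were used. The totals of mapped reads that the study's methods give were not used here. Ratios are on the log2(FPKM + 1) scale, which understates changes of low genes, while folds and the 2-fold threshold use FPKM as deposited. The log2 ratio of *Stat5a* to *Stat5b* also uses FPKM as deposited, and its averaged tissue difference of 1.77 was 1.70 with FPKM + 1. limma 3.58.1 in R 4.3.3 was run with lmFit and eBayes with trend, and Benjamini-Hochberg adjustment over all genes. The code of the fit was run on simulated data with large known changes and a set noise, which does not show its power in these libraries. Other steps used Python 3.11.15 and pandas 2.3.3. Gene positions are from GENCODE vM1 (NCBIM37) and promoters from RefSeq (GRCm38.p6), with no window for *Socs2*. The 10 genes, the pathway lists and the marker lists were chosen with earlier results of these data known. Pathway genes are named for the highest mean FPKM of their list, or, up to 3 each, for being past 2-fold alike in both tissues or both fractions. Some genes that this rule names are not reported here. Alternatives were other thresholds, pseudocounts, filters, scalings and limma settings. Leaving out the BM GFP+ library was added after the data had been seen.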

Additional observations from a re-analysis of the deposited data

Results flagged for a closer look

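For 6 of the 10 genes the GFP+ and GFP- libraries differed in opposite directions in FL and BM. The difference between the tissues was not tested, since each rests on 1 library per group, and 45.6% of the genes that reached an FPKM of 1 in any library had opposite directions too. The BM value of the log2(FPKM + 1) ratio less its FL value was -3.92 for *Socs2*, larger in size than for 96% of these genes. It was 1.29 for *Socs1*, 1.25 for *Socs3*, 1.13 for *Pim1*, 0.97 for *Jak1* and -0.65 for *Stat5a*. Scaling to equal FPKM totals turned the BM ratio of *Socs3* from 0.16 to -0.27 and that of *Pim1* from 0.21 to -0.21, and the FL ratio of *Socs2* from 0.04 to -0.21, so that these 3 genes then had the same direction in both tissues.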

How the results depend on the processing

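No paired analysis was possible because each group had 1 sample and no replicate numbers to match, although the limma fit kept the other factor (tissue or GFP) as a block. No library could be left out of the limma fit, which then has no residual degree of freedom. In the FL (GFP+ against GFP-), 2 of the 10 genes were past the threshold. At 1.5-fold 1 was higher and 4 were lower, against 29.1% of all genes higher and 32.5% lower. Percentages of all genes follow in the same order, higher first. At 4-fold 1 was lower (6.98% and 20.1%), and with ratios of FPKM + 1 also 1 (15.4% and 24.3%). With equal FPKM totals 4 were lower (13.0% and 31.5%), as with equal upper quartiles (13.4% and 30.2%). In the BM (1 gene), 2 were higher and 2 lower at 1.5-fold (32.4% and 26.5%). Either scaling gave 2 lower (13.1% and 27.7% with equal totals, 18.9% and 21.1% with equal upper quartiles). For BM against FL in GFP+ cells (5 genes), 1 was higher and 1 lower at 4-fold (23.8% and 14.1%). In GFP- cells (2 genes), 3 were higher and 1 lower at 1.5-fold (29.3% and 28.6%). At 4-fold 1 was higher and 0 lower there (10.3% and 7.79%). In limma 0 of the 10 genes passed for GFP or tissue under each of the 6 alternatives, with an unadjusted p under 0.05 for 0 to 1 of them for GFP and 1 to 3 for tissue. All genes called ranged from 0 (without trend) to 15 for GFP, where 13 were called, and from 0 to 286 for tissue, where 288 were called. The adjusted p of *Socs3* for tissue ranged from 0.11 to 0.44. Equal totals moved the median log2 ratio of all genes from 0.12 to -0.30 in the BM, from 0.05 to -0.19 in the FL, from 0.15 to -0.42 between tissues in GFP+ cells and from 0.04 to -0.36 in GFP- cells. With the same scaling *Jak1*, *Jak2* and *Stat5a* turned from higher to lower in BM GFP+ than in FL GFP+ cells (-0.09, -0.26 and -0.38). *Stat5b*, which differed little with GFP, turned to -0.16 in the FL and -0.42 in the BM. Without the BM GFP+ library the tissue difference of *Jak1* went from 0.05 to -0.34 and that of *Socs1* from 0.22 to -0.01.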

Other observations

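Other genes that STAT5 is known to induce were listed as well (11 genes, of which 9 passed the filter in both GFP comparisons and 11 in both tissue comparisons). None (0) was past 2-fold in the same direction with GFP in both tissues, against 3.45% of all genes higher and 6.48% lower. In the BM 3 were higher and 1 lower in both fractions, against 11.9% and 7.7% of all genes. The 3 were *Osm*, *Bcl6* and *Bcl2*, the last named after its values were seen. *Osm*, the gene of the cytokine oncostatin M, had FPKM values of 0, 0, 60.7 and 28.0, in the order FL GFP+, FL GFP-, BM GFP+, BM GFP-. *Bcl6* had 0.440, 0, 7.64 and 2.05. *Osm* and *Bcl6* passed the filter through their BM values alone, so their direction was set by it. *Bcl2* had 0, 3.24, 15.2 and 8.30, and in the GFP+ fraction it also passed through its BM value alone. *Igf1* was lower in the BM, with 20.2, 10.7, 3.78 and 2.15. *Ccnd3*, which encodes cyclin D3, had the highest mean level of the list, at 152, 163, 318 and 219.6. Granulocyte and B cell genes were higher in the BM libraries too, as given above, and their part was not tested.

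Of 11 cytokine genes that feed the pathway, *Epo*, *Il3*, *Csf2*, *Csf3* and *Il5* were listed at 0 in all 4 libraries. *Ctf1*, the cardiotrophin gene, had the highest mean level, at 9.23, 8.06, 4.32 and 7.14. *Il6* had 0, 0, 2.55 and 1.04, and so entered the tissue comparison through its BM values alone.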
